A study of Mus musculus with 23 samples.

Results

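The transcripts described here belong to 35 mouse genes of glucose uptake, glycolysis and the response to low oxygen. They were taken as a list of symbols and matched to the Ensembl identifiers of the count table through a GENCODE mouse annotation. All 35 were found among the 26869 genes of that table. The list was set by function and not by level, but with earlier results of these data known. It holds 3 glucose and lactate carriers, 8 genes from hexose phosphorylation to the control of phosphofructokinase and 9 from aldolase to pyruvate kinase. It also holds 2 that decide the fate of pyruvate, 3 of oxygen sensing and 10 targets of hypoxia-inducible factor (HIF).

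RNA was sequenced from 23 subcutaneous MC38 tumors. MC38 is a colon carcinoma line of the C57BL/6J (B6) background, and each tumor grew from cells injected under the skin of a female F1 mouse aged 8 to 12 weeks. The F1 hosts carried the B6 genome together with that of a collaborative cross (CC) strain, an inbred mosaic of 8 founder strains. When tumors measured 75 to 110 mm3, each mouse received 200 µg of an isotype control antibody (2A3) or of an antibody to PD-1 (aPD1, 29F.1A12), and was killed 48 hours later. Hosts of CC001/UncJ (CC001F1), CC002/UncJ (CC002F1) and CC075/UncJ (CC075F1) are the responder (R) lines, and hosts of CC036/UncJ (CC036F1), CC079/TauUncJ (CC079F1) and CC080/TauUncJ (CC080F1) are the non-responder (NR) lines. The labels give the line and the antibody, while the R and NR classes come from the study's text. Each line had 2 tumors per antibody except CC080F1, which had 1 aPD1 tumor, giving 12 R and 11 NR tumors. Every host shares the B6 parent and the same tumor line. The labels give no injection day, cage or processing batch, so host line and such batches cannot be told apart. A class rests on only 3 lines, and tumors of one line share a genome. Each sample is bulk tumor, in which carcinoma cells and infiltrating host cells were read together.

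Glycolysis turns glucose into pyruvate through a chain of cytosolic enzymes, and lactate dehydrogenase and the monocarboxylate carriers then let the cell dispose of pyruvate as lactate. When oxygen is plentiful, the prolyl hydroxylases Egln1 and Egln3 mark the HIF alpha subunits for destruction. When oxygen falls, the stabilized subunit, such as the product of Hif1a, enters the nucleus and binds short elements in the control regions of its targets, which include the glucose carrier Slc2a1, most glycolytic enzymes, carbonic anhydrase Car9 and the hydroxylases themselves. In solid tumors this program is known from poorly perfused regions and from carcinoma cells with high glucose use.

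The letters that HIF recognizes are short, and the promoter windows of 5 genes are shown because they carry the contrasts described here. Car9, Slc2a1 and Bnip3 had the largest differences between CC036F1 tumors and the rest, Ddit4 had the smallest adjusted p between R and NR lines, and Hif1a itself hardly varied. Each window spans 250 bases before to 50 bases after a RefSeq start site in GRCm38.p6 and is written 5′ to 3′ on the strand of the gene. Capitals mark the core ACGTG or GCGTG on either strand, so that the reverse complements CACGT and CACGC are capitalized too. A CACGTG, which reads as a core on both strands, was counted once.
Car9 (chr4:43506776-43507075, plus strand): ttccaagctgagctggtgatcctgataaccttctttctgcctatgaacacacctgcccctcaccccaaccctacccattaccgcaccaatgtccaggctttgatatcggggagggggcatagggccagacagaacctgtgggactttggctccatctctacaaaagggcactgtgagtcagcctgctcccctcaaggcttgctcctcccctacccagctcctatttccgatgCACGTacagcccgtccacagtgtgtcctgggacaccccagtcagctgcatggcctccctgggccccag
Slc2a1 (chr4:119108495-119108794, plus strand): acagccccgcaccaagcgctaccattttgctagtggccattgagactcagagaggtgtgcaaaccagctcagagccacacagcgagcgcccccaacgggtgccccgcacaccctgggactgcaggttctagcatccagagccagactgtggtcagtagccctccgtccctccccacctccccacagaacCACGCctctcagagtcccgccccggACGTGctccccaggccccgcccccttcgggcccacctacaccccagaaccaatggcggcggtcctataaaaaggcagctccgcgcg
Bnip3 (chr7:138909457-138909756, minus strand): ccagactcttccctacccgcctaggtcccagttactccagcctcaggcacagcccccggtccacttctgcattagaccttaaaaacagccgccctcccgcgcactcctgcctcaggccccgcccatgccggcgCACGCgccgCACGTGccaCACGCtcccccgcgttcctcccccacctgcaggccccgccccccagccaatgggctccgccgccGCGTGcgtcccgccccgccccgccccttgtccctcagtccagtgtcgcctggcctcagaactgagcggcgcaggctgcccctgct
Ddit4 (chr10:59951721-59952020, minus strand): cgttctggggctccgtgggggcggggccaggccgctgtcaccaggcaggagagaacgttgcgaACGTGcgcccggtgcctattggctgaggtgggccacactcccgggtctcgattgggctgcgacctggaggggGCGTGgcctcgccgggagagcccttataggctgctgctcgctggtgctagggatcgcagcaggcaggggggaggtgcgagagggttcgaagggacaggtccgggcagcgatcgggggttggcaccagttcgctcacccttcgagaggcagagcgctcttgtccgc
Hif1a (chr12:73907617-73907916, plus strand): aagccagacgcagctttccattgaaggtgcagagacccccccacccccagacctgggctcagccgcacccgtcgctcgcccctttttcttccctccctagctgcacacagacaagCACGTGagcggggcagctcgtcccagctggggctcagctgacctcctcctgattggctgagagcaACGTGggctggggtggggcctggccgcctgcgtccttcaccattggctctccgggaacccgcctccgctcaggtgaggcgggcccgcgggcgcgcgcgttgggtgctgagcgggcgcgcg
The window of Car9 held 1 core, those of Slc2a1, Ddit4 and Hif1a held 2 each, and that of Bnip3 held 4. A window was given for 32 of the 35 genes, and 29 of these (90.6%) held at least 1 core in some window, against 46.7% of all 27025 genes with windows. At least 2 cores were present for 24 (75.0%), against 19.5% of all genes. The windows of the listed genes were also richer in CG dinucleotides, with a median of 21 per window against 7 over all 32851 windows. Among windows with at least 21 CG dinucleotides, 74.0% of all windows held a core, against 21 of the 23 (91.3%) from the listed genes. A match of letters is a description of the sequence and not a bound site.

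Libraries held between 14494014 and 71868253 counts, and 6 of the 23 (2 R and 4 NR) were shallow, at most 18354585 against at least 37242363 in the rest. Values are given as normalized counts, the deposited counts divided by the DESeq2 size factor of the tumor, and levels of different genes are compared only after division by exon length in kilobases (kb). Replicate numbers do not state separate cages or days, so p-values measure the spread between these tumors. Of the epithelial keratins, Krt8 was listed at 0 in 2 tumors, Krt18 in 7 and Krt19 in 6. In 4 tumors the summed skeletal muscle markers exceeded 5000 normalized counts.

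The 35 genes covered a wide span of abundance. Per kb of exon, the mean over the 23 tumors was highest for Gapdh at 21632 normalized counts, followed by Pgk1 at 18246, Pkm at 16629, Ldha at 13364 and Pgam1 at 12565. Among genes upstream of aldolase, Gpi1 was the most abundant at 2827 per kb, and Slc2a1 stood at 2309. The second glucose carrier, Slc2a3, was the lowest of all at 24.9 per kb, below the brain-type isoforms Aldoc at 31.2 and Eno2 at 54.6. Adm, which encodes the vasodilator adrenomedullin, stood at 59.2. The aldolase transcript with the highest level was Aldoa at 9783 per kb, and the enolase transcript with the highest level was Eno1 at 11462. The coefficient of variation over the 23 tumors was smallest for Hif1a at 8.69% and for Gapdh at 9.61%, and largest for Car9 at 74.0%, whose highest tumor exceeded its lowest 18.1-fold. Together the 35 genes took between 1.04% and 1.90% of all counts of a tumor, and the 4 CC036F1 tumors, at 1.53% to 1.90%, lay above the other 19, at 1.04% to 1.5%.

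**Figure D1:**
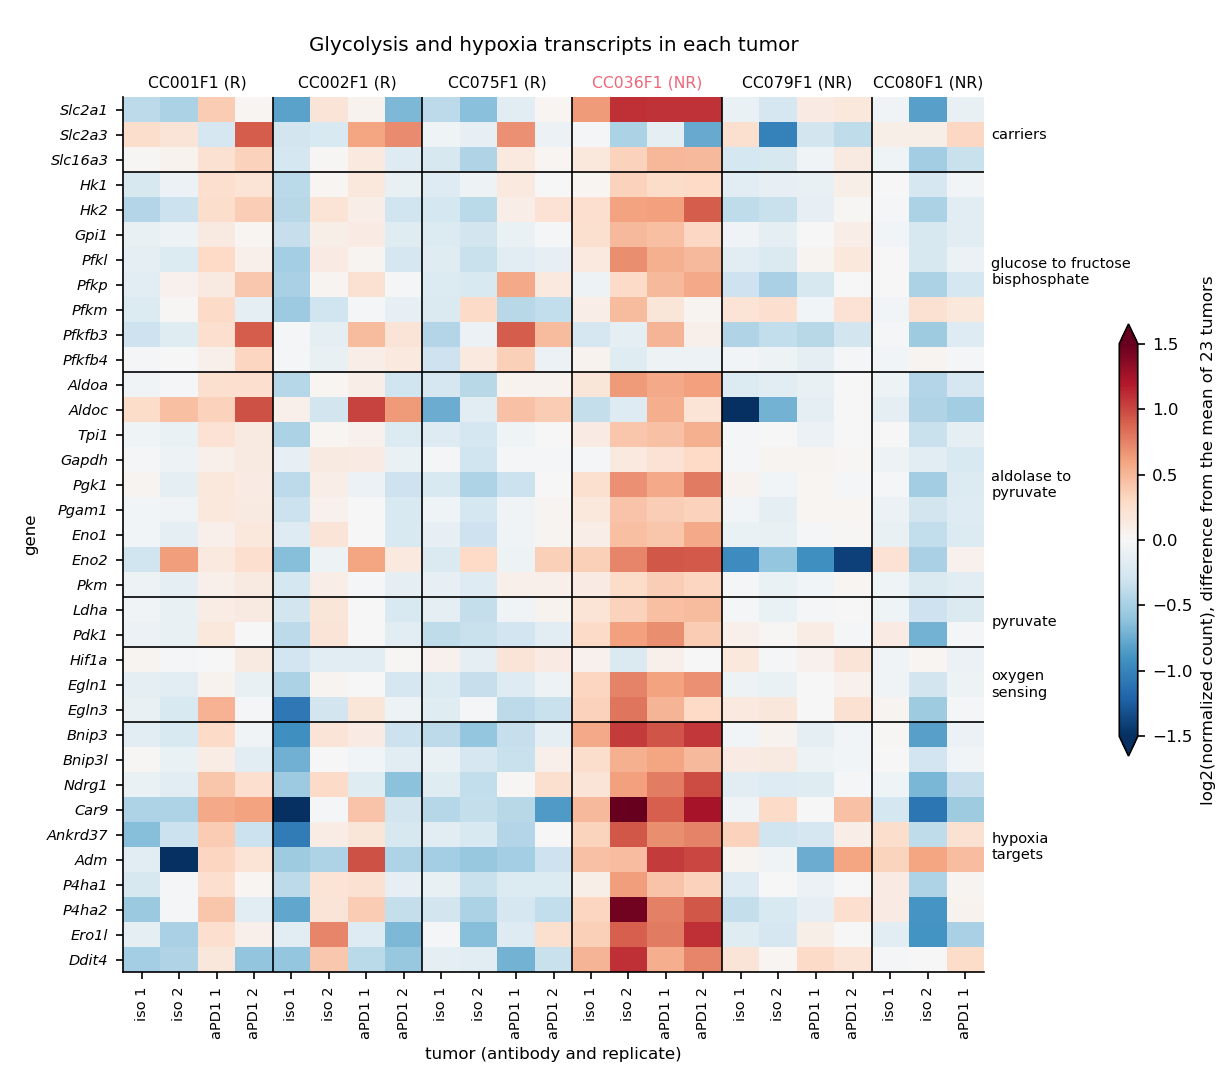
Difference of log2(normalized count) from the mean of all 23 tumors (color) for each of the 35 genes (y axis, grouped by role) in each tumor (x axis, grouped by host line, iso for isotype). The 4 CC036F1 columns are red across most genes, while Slc2a3, Pfkfb3, Pfkfb4, Aldoc and Hif1a do not follow them. Pfkm also had its highest line mean there.

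The study asks how host genetics shape the tumor, and the first comparison was therefore among host lines. A likelihood ratio test in DESeq2, with antibody as a term, called 29 of the 35 genes different among the 6 lines at an adjusted p under 0.05, against 16% (3067 of 19192) of all genes tested. The genes without a call were Slc2a3, Hk1, Pfkm, Pfkfb3, Pfkfb4 and Hif1a, with adjusted p-values from 0.0532 to 0.81. One line set this result. CC036F1 had the highest mean of the 6 lines for 30 of the 35 genes and held the single highest tumor for 29, and no gene had its lowest tumor there. Left without CC036F1, the same test called 2 of the 35, Aldoc and Eno2, against 7.18% of all genes.

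For that reason, and after the values by line had been seen, each line was compared with the mean of the other 5. In this comparison CC036F1 tumors had 29 of the 35 genes higher and 0 lower, against 6.38% of all genes tested called higher and 8.65% called lower. The median log2 difference was 0.56 over the 35 genes and 0.0042 over all genes tested. The 4 CC036F1 tumors lay above all 19 others for 9 genes (25.7%), namely Slc2a1, Gpi1, Pgk1, Ldha, Pdk1, Egln1, Bnip3, Bnip3l and Ddit4, against 1.03% of the 12055 genes with a mean of at least 100 normalized counts. No gene of the list separated any other line in this way, in either direction. Within the NR class, the 4 CC036F1 tumors lay above the 7 tumors of CC079F1 and CC080F1 for 22 of the 35 genes (62.9%), against 3.60% of the same background. In bulk tumor, more cells of a type and more RNA per cell cannot be told apart in any of these values.

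**Figure D2:**
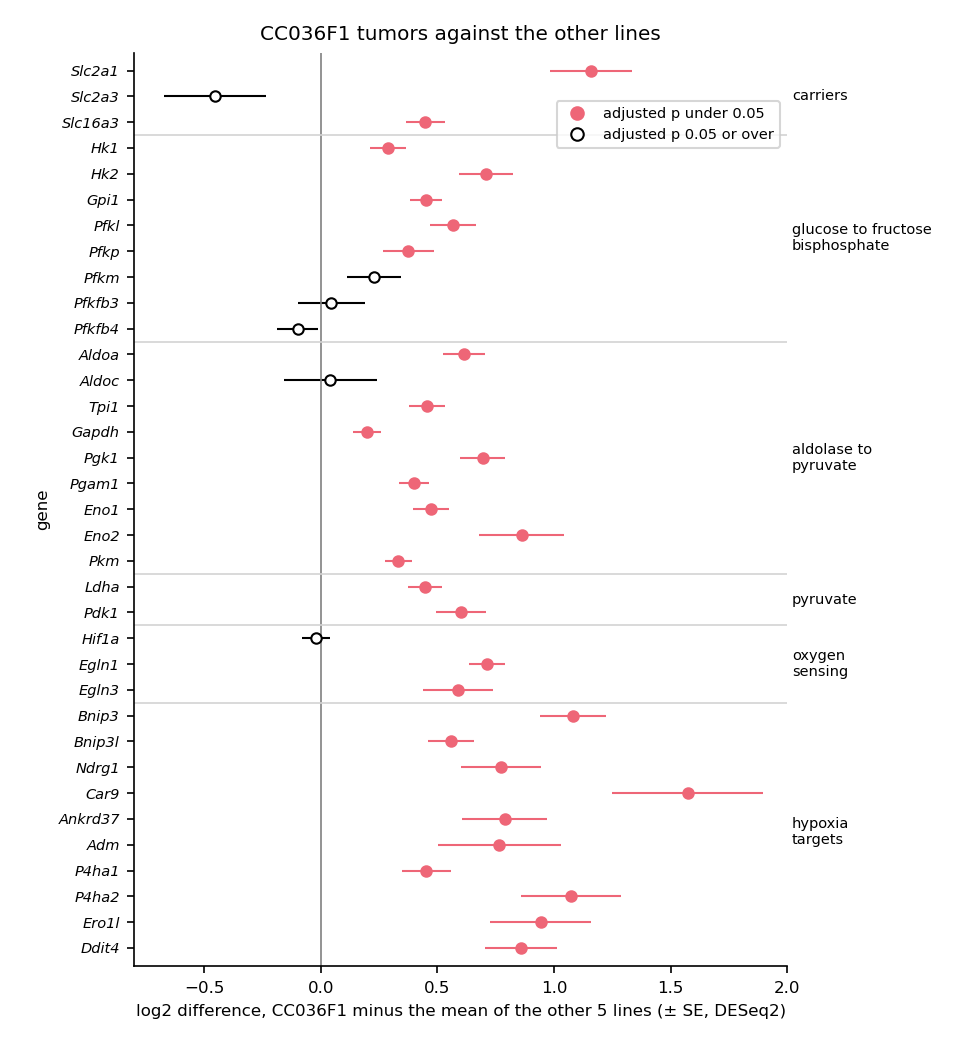
Log2 difference of CC036F1 tumors from the mean of the other 5 lines (x axis, point with a bar of 1 standard error, DESeq2) for each gene (y axis, by role), filled where the adjusted p was under 0.05. All 29 filled points lie to the right of 0, from 0.20 for Gapdh to 1.57 for Car9.

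Among the carriers, Slc2a1 (chr4:119108711-119137983), the main glucose carrier of carcinoma cells, stood at 11619.9, 15969, 15848.5 and 15889 normalized counts in the CC036F1 tumors, the first being isotype replicate 1. The other 19 tumors ran from 4274 to 9764 with a median of 6959. The groups did not overlap, and the log2 difference was 1.16 ± 0.18 (SE, n = 4 against 19, DESeq2 adjusted p = 7.98e-09). The lactate exporter Slc16a3 was also higher, by 0.45 ± 0.084. Slc2a3, the high-affinity glucose carrier abundant in neurons and leukocytes, went the other way without a call, at -0.45 ± 0.22 (adjusted p = 0.156, DESeq2).

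Upstream of aldolase, the hexokinases, the isomerase and 2 of the 3 phosphofructokinase subunits were higher in CC036F1, while Pfkm, Pfkfb3 and Pfkfb4 had no call. Hk2, the inducible hexokinase, was higher by 0.71 ± 0.12, and its constitutive counterpart Hk1 by 0.29 ± 0.078. Gpi1, glucose-6-phosphate isomerase, differed by 0.45 ± 0.069, and the liver and platelet subunits of phosphofructokinase, Pfkl and Pfkp, by 0.57 ± 0.097 and 0.38 ± 0.11. The muscle subunit Pfkm had no call (0.23 ± 0.12, DESeq2 adjusted p = 0.191). Nor had Pfkfb3 and Pfkfb4, which set the level of the activator fructose 2,6-bisphosphate, at 0.043 ± 0.14 and -0.099 ± 0.088. Pfkfb3 ranged from 1471 to 2482 normalized counts in CC036F1 and from 1209 to 3287 in the other tumors, so that the groups overlapped fully.

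From aldolase to pyruvate, 8 of 9 genes were higher in CC036F1. Pgk1 (chrX:106187100-106203699), phosphoglycerate kinase, was measured at 46875, 63840 (isotype replicates 1 and 2), 59166 and 68637 (aPD1 replicates 1 and 2) normalized counts, against 27670 to 44409 with a median of 38850 elsewhere. No other tumor reached the lowest CC036F1 value, and the log2 difference was 0.69 ± 0.096 (DESeq2 adjusted p = 1.79e-10). Gapdh (chr6:125161715-125166467), often used as a constant reference, gave 88198, 98242, 103419 and 109082 against 72144 to 98067 with a median of 87248. Reads assigned to Gapdh pseudogenes, whose mean share was highest in CC036F1 as given below, are not in these values. The ranges overlapped, 7 of the other tumors lying above the lowest CC036F1 tumor. On the parent count alone the difference was the smallest with a call, 0.20 ± 0.060 (adjusted p = 0.0107, DESeq2). Between these lay Aldoa at 0.61 ± 0.089, Eno1 at 0.47 ± 0.077, Tpi1 at 0.45 ± 0.078, Pgam1 at 0.40 ± 0.065 and Pkm at 0.33 ± 0.059. The neuronal enolase Eno2 differed by 0.86 ± 0.18, although its level was low. Aldoc, the brain-type aldolase, did not differ from the other lines beyond its error, at 0.040 ± 0.20.

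At the branch point of pyruvate, Ldha (chr7:46841475-46855627), which makes lactate, gave 50357, 55570, 59692 and 60815 normalized counts in CC036F1, against 34136 to 49563 with a median of 42215. The lowest CC036F1 tumor stood just above the highest of the other 19, which was CC002F1 isotype replicate 2. The log2 difference was 0.45 ± 0.074 (DESeq2 adjusted p = 1.57e-07). Pdk1, a kinase that inhibits pyruvate dehydrogenase, differed by 0.60 ± 0.11.

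The oxygen sensors and their substrate parted. Hif1a (chr12:73901375-73947530), whose product is controlled mainly through its stability, stood at 8312, 6854, 8431 and 7993 normalized counts in CC036F1 and at 6531 to 9092 with a median of 8094 elsewhere. The groups overlapped throughout, and the log2 difference was -0.022 ± 0.059 (DESeq2 adjusted p = 0.869). Egln1, the main prolyl hydroxylase, gave 6057, 8061, 7311 and 7737 against 3486 to 5053 with a median of 4508. Its groups did not overlap, and its difference of 0.71 ± 0.077 had the smallest adjusted p of the list, 2.53e-17 by DESeq2. Egln3 differed by 0.59 ± 0.15, with 1 of the other tumors above the lowest of CC036F1.

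All 10 of the remaining HIF targets were higher, with a median log2 difference of 0.82. Car9 (chr4:43506966-43513729), a cell-surface carbonic anhydrase used as a mark of hypoxic cells, gave 719, 2365, 956 and 1210 normalized counts in CC036F1 against 131 to 778 with a median of 425. Here 1 tumor, isotype replicate 2, stood far above the rest, and 2 of the other tumors exceeded the lowest of CC036F1. The log2 difference was 1.57 ± 0.32 (DESeq2 adjusted p = 4.84e-05), and was 1.00 (adjusted p = 0.0209) without isotype replicate 2. Bnip3, which drives the removal of mitochondria, was measured at 9132, 12770.1, 11804 and 12792 against 3243 to 7483 with a median of 5581. Every CC036F1 tumor lay above every other tumor, and the difference was 1.08 ± 0.14 (adjusted p = 1.16e-11, DESeq2). Its relative Bnip3l differed by 0.56 ± 0.099.

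The prolyl hydroxylases of collagen, P4ha2 and P4ha1, differed by 1.07 ± 0.21 and 0.45 ± 0.11. Ero1l, which forms disulfide bonds in the endoplasmic reticulum, differed by 0.94 ± 0.22, and Ddit4, an inhibitor of the mTOR complex, by 0.86 ± 0.15. Ankrd37 and Ndrg1, both known mainly as transcripts induced by low oxygen, differed by 0.79 ± 0.18 and 0.77 ± 0.17. Adm was the least secure of the 29, at 0.77 ± 0.26 (adjusted p = 0.0301 by DESeq2 and 0.0621 by edgeR), with 117 to 179 normalized counts in CC036F1 against 19.3 to 168.

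**Figure D3:**
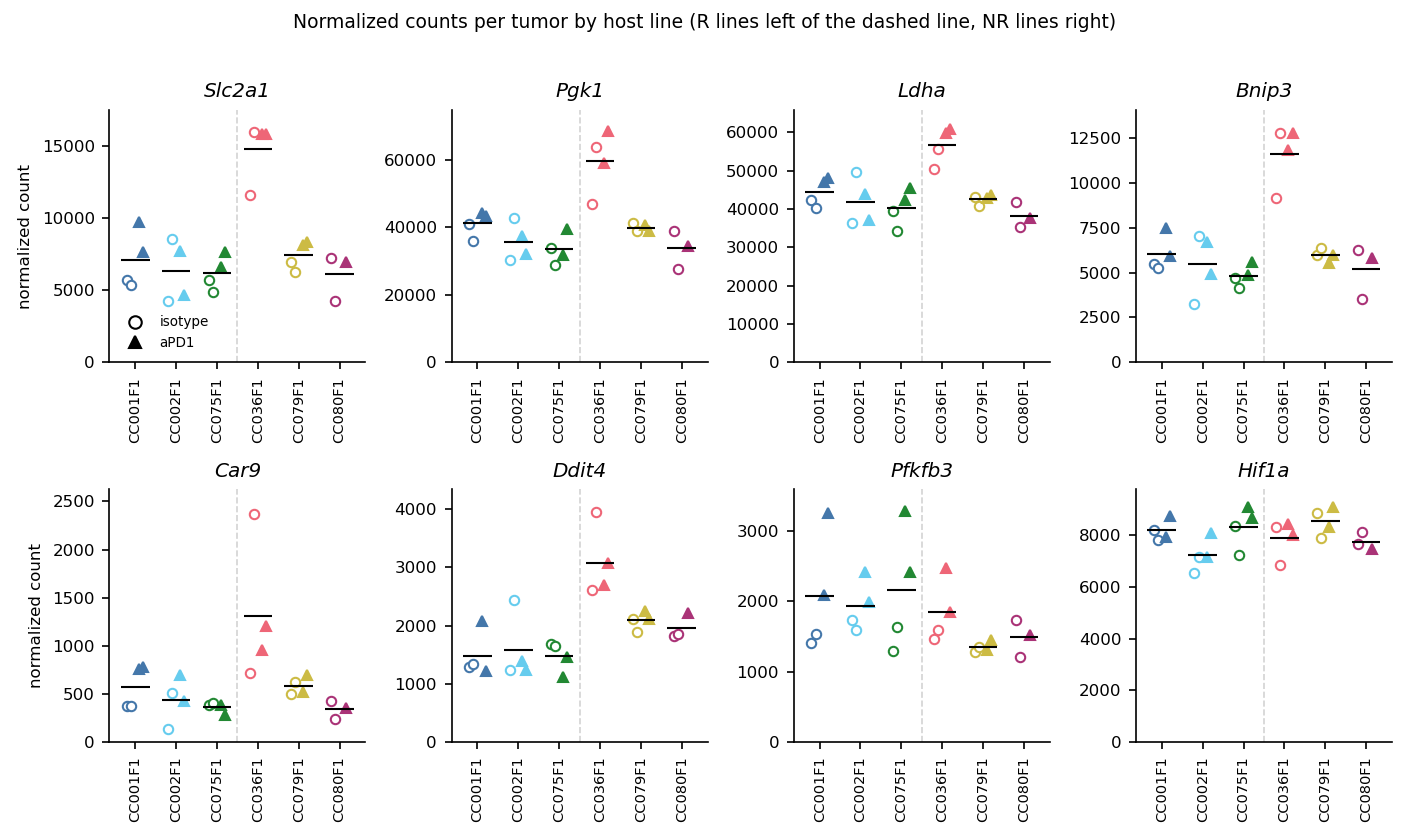
Normalized counts (y axis, from 0) in each tumor by host line (x axis) for 8 of the genes, with open circles for isotype, triangles for aPD1 and a bar at the line mean. CC036F1 stands above the other 5 lines for Slc2a1, Pgk1, Ldha, Bnip3 and Ddit4, its 4 Car9 values run from 719 to 2365, and for Pfkfb3 and Hif1a it lies among the others.

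The difference was not equal in the 4 CC036F1 tumors. The mean deviation of the 35 genes from their 23-tumor mean, on the log2 scale, was 0.20 in isotype replicate 1, the shallowest library of the line at 17134304 counts, and 0.53 to 0.55 in the other 3. Isotype replicate 2 alone held the highest tumor of 14 genes. Without it, 24 genes were still called higher, and without each of the other 3 CC036F1 tumors in turn between 26 and 28 were. At the other end of the scale stood CC002F1 isotype replicate 1, at a mean deviation of -0.48 and the lowest tumor of 14 genes, and CC080F1 isotype replicate 2, at -0.38 and the lowest of 12. The second tumor of the same group in CC002F1 was at 0.053.

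Other transcripts moved with CC036F1. The 4 endothelial markers (Pecam1, Cdh5, Kdr and Emcn) each had their lowest line mean there, their sum running from 1773 to 3373 normalized counts against 3372 to 6003 elsewhere. The 4 adipocyte markers likewise were lowest in this line, at a sum of 104 to 167 against 355 to 1754, where Cidec averaged 0.31, Adipoq 2.29 and Plin1 4.88 normalized counts and Fabp4 made up nearly all of the sum. Of the 4 fibroblast markers, Col1a1, Bgn and Postn were lowest in CC036F1, Col1a1 averaging 2371 normalized counts against 5932 to 9520 in the other lines, while Dcn was not, at 25609 against 22225 to 30169. The neutrophil transcripts S100a8 and S100a9 had their highest line mean there but were sparse, S100a9 at 34.96 against 1.23 to 19.7, and Retnlg and Cxcr2 did not. Of the 4 listed markers of MC38 cells, the abundant Shisal2b averaged 644 in CC036F1, within the 580.4 to 905 of the other lines, and the 3 keratins, sparse in every line, had their lowest mean there. Macrophage markers summed to 46442 to 81774 in CC036F1 against 51861 to 143777. Of these 6 genes, 3 had their lowest line mean there, while Mrc1 had its highest, at 7793 against 5510 to 7166. T and NK cell markers summed to 326 to 684 against 256 to 3517, 2 of the 6 having their lowest line mean there. The part of these differences in the glycolytic and hypoxic transcripts was not tested. The muscle-marked tumors lay in other lines, and the count in CC036F1 remained 29 without them.

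The remaining lines had few calls. No gene of the list was called for CC001F1, CC002F1 or CC080F1, where 1.83%, 0.675% and 0.611% of all genes tested were called in either direction. By DESeq2, at an unadjusted p under 0.05, these lines had 3, 9 and 10 of the 35 genes. By edgeR, which also called 0 of them, they had 3, 6 and 11. The share of all genes at that unadjusted cut is not given here, so these counts are not read as a result about the list. CC075F1 had 1 gene lower, against 0.464% of all genes: Pdk1, at 3408, 3524, 3629.5 and 3936 normalized counts and a log2 difference of -0.36 ± 0.11 (DESeq2 adjusted p = 0.034, edgeR 0.106). CC079F1 had 3 lower, against 2.31%. Eno2 stood there at 123, 159, 125 and 89.6 normalized counts, with only isotype replicate 2 above any tumor of the other lines, and that 1 tumor only, at -1.15 ± 0.19 (DESeq2 adjusted p = 1.44e-06, edgeR 0.00373). Aldoc and Pfkfb3, at -0.73 ± 0.21 and -0.46 ± 0.14, were called in this line by DESeq2 alone (adjusted p = 0.0275 and 0.047) and not by edgeR (0.116 and 0.121). These 6 comparisons share tumors and are not independent of each other.

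R lines were then set against NR lines in the 23 tumors together, the antibody being a covariate, since this contrast separates hosts that respond to aPD1 from those that do not. Here and in the class comparisons below, DESeq2 and edgeR treated tumors of the same line as independent. Because class belongs to the line, these p-values do not measure the spread between lines. DESeq2 called 9 of the 35 genes lower in R, against 6.78% of all genes tested, and 2 higher, against 7.66%. The median log2 difference of R from NR was -0.19 over the 35 genes and -0.00042 over all genes. Because CC036F1 is an NR line, this comparison contains the one of CC036F1 with the other lines. Without CC036F1 the count lower in R fell to 1, against 4.92% of all genes, and the count higher rose to 4, against 5.96%. The median then was 0.00098.

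**Figure D4:**
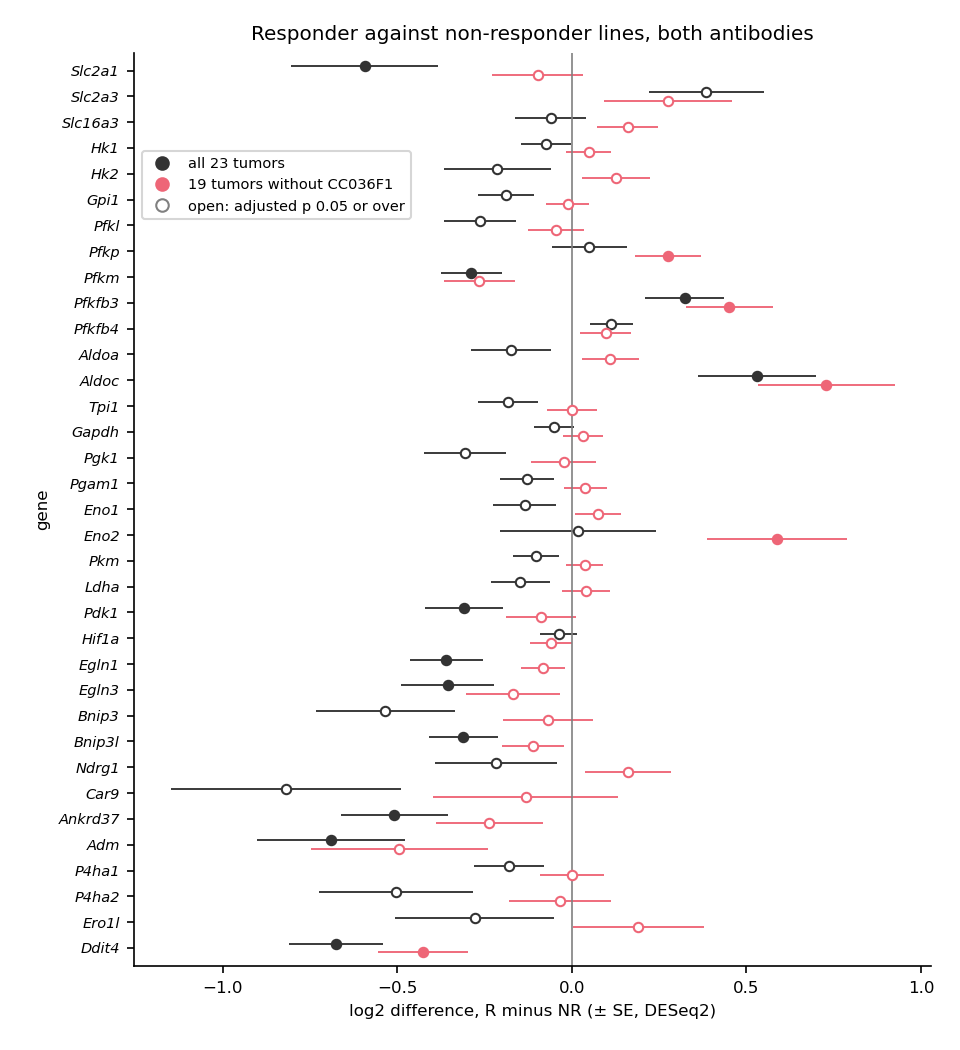
Log2 difference of R from NR tumors (x axis, point with a bar of 1 standard error, DESeq2) for each gene (y axis) over all 23 tumors (black) and over the 19 tumors without CC036F1 (red), open where the adjusted p was 0.05 or over. Most black points lie left of 0 and their red partners close to 0, while Ddit4 stays left and Pfkfb3 and Aldoc stay right.

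Ddit4 was the exception that stayed lower in R. Its 12 R tumors ran from 1123 to 2436 normalized counts with a median of 1367, and its 11 NR tumors from 1816 to 3952 with a median of 2221. Only 2 R tumors, CC002F1 isotype replicate 2 and CC001F1 aPD1 replicate 1, reached the NR range. The log2 difference was -0.68 ± 0.14 (DESeq2 adjusted p = 3.97e-05, edgeR 0.00326), and without CC036F1 it was -0.43 with an adjusted p of 0.0146 (DESeq2). The product of this gene restrains growth signaling under stress.

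Slc2a1 behaved otherwise. R tumors ran from 4287 to 9764 normalized counts with a median of 6186 and NR tumors from 4274 to 15969 with a median of 8129, a log2 difference of -0.59 ± 0.21 (DESeq2 adjusted p = 0.0371). The 7 NR tumors outside CC036F1 ran from 4274 to 8335, within the R range, and the difference without CC036F1 was -0.098 (adjusted p = 0.719, DESeq2). Egln1 (-0.36 ± 0.11), Egln3 (-0.36 ± 0.13), Bnip3l (-0.31 ± 0.099), Pdk1 (-0.31 ± 0.11) and Ankrd37 (-0.51 ± 0.15) showed the same loss of the call, with DESeq2 adjusted p-values of 0.363 to 0.653 without CC036F1.

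Adm and Pfkm kept more of their size. Adm ran from 19.3 to 168 in R and from 51.7 to 179 in NR, and its difference went from -0.69 ± 0.21 (DESeq2 adjusted p = 0.0126) to -0.49 (0.221). Pfkm went from -0.29 ± 0.088 (DESeq2 adjusted p = 0.012) to -0.27 (0.0693), with NR tumors at 2864 to 4086 and R tumors at 2020.4 to 3611. Neither passed the threshold without CC036F1.

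Those higher in R were Aldoc (0.53 ± 0.17, DESeq2 adjusted p = 0.0178) and Pfkfb3 (0.32 ± 0.11, adjusted p = 0.0348), and both grew without CC036F1, to 0.73 (0.00541) and 0.45 (0.00701). Pfkfb3 ran from 1288 to 3287 normalized counts in R with a median of 1861, and from 1209 to 1730 with a median of 1354 in the 7 NR tumors outside CC036F1. Pfkp and Eno2 joined them in that smaller set, at 0.28 (0.0385) and 0.59 (0.0363). Neither was called over all 23 tumors, where their adjusted p-values were 0.824 and 0.975 by DESeq2. The low NR values of Eno2 lay mainly in CC079F1, which averaged 124 normalized counts. CC080F1 averaged 231, near the R lines at 249 to 276.

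The most abundant enzymes did not separate the classes. Pgk1 differed by -0.31 ± 0.12 (DESeq2 adjusted p = 0.0623), Ldha by -0.15 ± 0.085 (0.255) and Gapdh by -0.051 ± 0.057 (0.63). Hif1a ran from 6531 to 9076 in R and from 6854 to 9092 in NR and differed by -0.038 ± 0.053 (DESeq2 adjusted p = 0.716). Car9 had the largest difference of the list, -0.82 ± 0.33, with no call (DESeq2 adjusted p = 0.0757). Of the 11 calls, edgeR kept 4 (Pfkm, Egln1, Ankrd37 and Ddit4), and 4 remained by DESeq2 when counts were summed within each line and antibody. The isotype and aPD1 sums of a line were still treated as independent. The limma fit, which took tumors of the same line as correlated, called 4 genes of the list. The share of all genes called in these fits is not given here, so the lower counts are not read as a result about the list.

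Within the isotype tumors, before any aPD1, 1 gene was lower in R, against 3.24% of all genes tested, and 0 were higher, against 2.29%. This was Adm, at 19.3, 58.3, 59.4, 60.5, 62.9 and 76.5 normalized counts in the 6 R tumors and 83.3, 88.8, 109, 117, 119 and 131 in the 6 NR tumors. The groups did not overlap, and the log2 difference was -0.90 ± 0.24 (DESeq2 adjusted p = 0.00789), but edgeR gave an adjusted p of 0.131. Adm was sparse, with 9 to 288 raw counts per tumor over all tumors, and 19.3 came from a shallow library, CC001F1 isotype replicate 2. In the aPD1 tumors its ranges overlapped, at 60.4 to 168 in R and 51.7 to 179 in NR. Slc2a1 differed by -0.60 ± 0.33 (DESeq2 adjusted p = 0.287), with R from 4287 to 8553 and NR from 4274 to 15969. Car9 differed by -1.17 ± 0.52 (0.172), Pgk1 by -0.27 ± 0.19 (0.435), Ldha by -0.14 ± 0.11 (0.483), Gapdh by -0.055 ± 0.073 (0.726) and Hif1a by -0.076 ± 0.076 (0.624), with DESeq2 adjusted p-values in parentheses.

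Within the aPD1 tumors, 2 genes were higher in R, against 5.94%, and 1 was lower, against 1.99%. Ddit4 was the lower one. Its 6 R tumors stood at 1123, 1225, 1245, 1388, 1456 and 2075 normalized counts and its 5 NR tumors at 2115, 2221, 2249, 2697 and 3070. No R tumor reached the NR range, and the difference was -0.80 ± 0.16 (DESeq2 adjusted p = 2.82e-05, edgeR 0.0149).
Pfkfb3 was higher in R by 0.58 ± 0.18 (DESeq2 adjusted p = 0.0196, edgeR 0.114), with R tumors at 1993 to 3287 and NR tumors at 1307 to 2482. Slc2a3 was higher by 0.70 ± 0.24 (DESeq2 adjusted p = 0.0454, edgeR 0.172), with 144 to 322 in R and 102 to 213 in NR. Both sets of ranges overlapped. The named genes with no call were Slc2a1 (-0.59 ± 0.28), Pgk1 (-0.34 ± 0.17), Ldha (-0.16 ± 0.13), Gapdh (-0.049 ± 0.092), Hif1a (0.0011 ± 0.076) and Car9 (-0.43 ± 0.37), all with DESeq2 adjusted p-values of 0.207 to 0.996.

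The aPD1 antibody itself was compared with isotype within each class, with line as a term. In R lines 3 of the 35 genes were higher after aPD1, against 4.85% of all genes tested, and 0 were lower, against 0.408%. Pfkfb3 stood at 1288, 1404, 1535, 1595, 1639 and 1730.2 normalized counts under isotype and at 1993, 2086, 2416, 2418, 3264 and 3287 under aPD1. Every aPD1 tumor lay above every isotype tumor, and the log2 difference was 0.74 ± 0.14 (DESeq2 adjusted p = 4.86e-05). Aldoc ran from 56.4 to 129 under isotype and from 119 to 191 under aPD1 (0.69 ± 0.19, adjusted p = 0.0119, DESeq2), and Pfkp from 2110 to 3086 and from 2902 to 4364 (0.40 ± 0.11, adjusted p = 0.0134, DESeq2). Both of these overlapped slightly between antibodies.

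These 3 calls were made by DESeq2 alone. In the same comparison edgeR and limma called 0 genes of the whole table, with 2621 and 2848 at an unadjusted p under 0.05, and edgeR gave adjusted p-values of 0.0585 for Pfkfb3, 0.0892 for Pfkp and 0.117 for Aldoc. Of the 35 genes, 34 had a positive difference, with a median of 0.19 against -0.012 over all genes, and the exception was Ddit4 at -0.19 ± 0.18. The 35 genes come from the same tumors and are not independent of each other. The share of all genes with a positive sign is not given here, so the count of 34 is not read as a result about the list. Slc2a1 differed by 0.34 ± 0.22 (DESeq2 adjusted p = 0.48), Car9 by 0.54 ± 0.35 (0.49), Ldha by 0.12 ± 0.091 (0.594), Pgk1 by 0.092 ± 0.099 (0.718), Gapdh by 0.090 ± 0.070 (0.588) and Hif1a by 0.13 ± 0.061 (0.277). T and NK cell markers, summed over 6 genes, ran from 717 to 1696 under isotype and from 872 to 3517 under aPD1 in these tumors, and macrophage markers from 51861 to 107865 and from 85988 to 143777. Their part in the difference was not tested.

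In NR lines no gene of the list was called by DESeq2, against 0.0448% of all genes. At an unadjusted p under 0.05 there were 5 (6 by edgeR, which called 0 of the 35). Here and for the interaction below, the share of all genes at that unadjusted cut is not given. These counts are therefore not read as results about the list. Pfkfb3 differed by 0.22 ± 0.12, Slc2a1 by 0.26 ± 0.11 and Aldoc by 0.57 ± 0.27, with DESeq2 adjusted p-values of 0.807 to 0.956. As in R lines, the median log2 difference was positive in each role of the list, from 0.045 for oxygen sensing to 0.18 for the carriers. The difference between the R and NR responses was tested as an interaction and also gave no call by DESeq2 or edgeR, against 0.0342%, with 1 gene at an unadjusted p under 0.05 by both DESeq2 and edgeR. That gene by DESeq2 was Pfkfb3, whose response was larger in R by 0.52 ± 0.19 (adjusted p = 0.485). A larger response in R lines was therefore not shown for any of the 35 genes.

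Further genes of the same pathways were followed by the same fits. Of 39 other hypoxia and HIF genes, 20 were higher and 4 lower in CC036F1, where 6.38% of all genes were higher and 8.65% lower. Vegfa, the endothelial growth factor, ran from 16966 to 21159 normalized counts there and from 8289 to 14527 elsewhere, without overlap, and differed by 0.72 ± 0.10 (DESeq2 adjusted p = 1.46e-09). Nos2, the inducible nitric oxide synthase, was higher by 1.14 ± 0.27 and the transcription factor Nfil3 by 0.98 ± 0.23. Lower in the same tumors were Lox, which cross-links collagen, by 2.05 ± 0.43 on the log2 scale, and Epas1, the HIF alpha subunit prominent in endothelium, by 1.04 ± 0.18. Epas1 ran from 282 to 480 in CC036F1 and from 448 to 1310.3 elsewhere.

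Of 33 other genes of glycolysis and pyruvate metabolism, 26 had an adjusted p, of which 2 were higher and 1 lower in CC036F1, shares near those over all genes. Those higher were Pgm1, phosphoglucomutase, at 0.69 ± 0.098, and the kinase Pdk3 at 0.27 ± 0.048, and the lower one was the carrier Slc16a7 at -0.82 ± 0.24. Between classes, where 7.66% of all genes were higher in R and 6.78% lower, 2 of the 39 hypoxia genes were higher and 12 lower, and without CC036F1 2 and 3. The glycogen branching enzyme Gbe1 was lower by 0.64 ± 0.089 on the log2 scale and the collagen hydroxylase Plod2 by 0.44 ± 0.085, and without CC036F1 they differed by -0.51 ± 0.084 and -0.28 ± 0.079 (DESeq2 adjusted p = 6.26e-07 and 0.00701). Vegfa went from -0.34 (DESeq2 adjusted p = 0.0311) to -0.051 ± 0.091 (0.80) without CC036F1. Of the 26 other glycolysis genes with an adjusted p, 2 were higher and 5 lower, and without CC036F1 1 and 2. They included Hk3, the hexokinase of myeloid cells, at 0.95 ± 0.21 and pyruvate carboxylase Pcx at -0.54 ± 0.12. After aPD1 in R lines, where 4.85% of all genes were higher and 0.408% lower, 5 of 38 hypoxia genes with an adjusted p were higher and 0 lower, led by Nos2 at 1.05 ± 0.30 and heme oxygenase Hmox1 at 0.62 ± 0.17, while 25 other glycolysis genes had 1 higher and 1 lower. In NR lines and in the interaction, none of either list was called by DESeq2.

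Glycolytic enzymes have many processed pseudogenes, copies of the spliced message elsewhere in the genome, and reads that match both were divided between them in the deposited counts. The annotation held 220 pseudogenes of the 35 genes, of which 112 were in the table, belonging to 11 genes. Gapdh had 95 of these, and together they held 41.5% as many counts as Gapdh over all tumors, from 32.9% to 56.8% by tumor. The copies Gm10359 (chr5:105862701-105863702) and Gm12671 (chr4:91851668-91852669), both 100% identical to the parent message over their length, each held 16%, and their counts were equal in all 23 tumors.

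The division also differed by host line. All Gapdh copies together averaged 51.5% of the Gapdh count in CC036F1 and 36.9% to 44.5% in the other lines. For Pgk1 the copies averaged 13.5% in CC036F1 and 12.9% to 24.4% in the other lines. Gm7336 (chr7:51746647-51747878) held 12.5% to 18.6% of the Gapdh count in CC036F1 and 0.25% to 0.39% in CC079F1, and between 1.30% and 2.67% in CC001F1, CC002F1 and CC080F1. In CC075F1 it stood at 19.6% in 1 tumor, isotype replicate 2, which like the 4 CC036F1 tumors had 0 counts of Gm13394 (chr2:28933610-28934609), a copy that held at most 0.047% in CC079F1 and at least 3.34% in the tumors of CC001F1, CC002F1 and CC080F1. Pgk1 showed the same kind of pattern. Its copy Gm5537 held 13.1% of the Pgk1 count over all tumors, and Pgk1-rs7 (chr12:10898986-10900240) held 5.65% to 12.7% in CC002F1 and 6.37% to 14.9% in CC075F1 but at most 0.27% in every other tumor. For the other 9 genes the pseudogenes held at most 0.52% of the total. When pseudogene counts were added back to their parent genes, 29 genes were still called higher in CC036F1 and 11 between R and NR lines by DESeq2. The size of the Gapdh and Pgk1 differences after this addition is not given here.

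**Figure D5:**
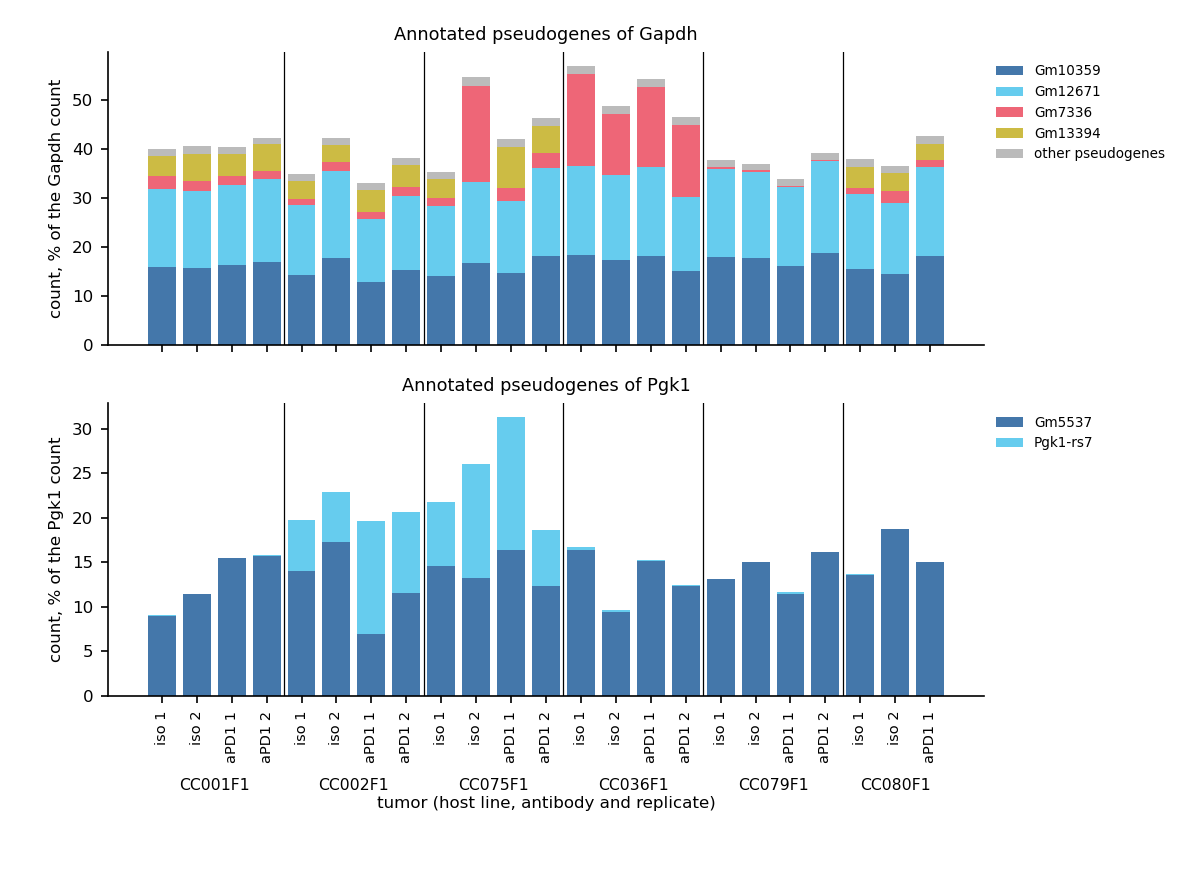
Counts of annotated pseudogenes as a percent of the count of their parent gene (y axis) in each tumor (x axis, by host line), above for Gapdh and below for Pgk1, stacked by pseudogene. Gm7336 is large in the 4 CC036F1 tumors and in 1 CC075F1 tumor, and Pgk1-rs7 is visible in CC002F1 and CC075F1.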

How the data were processed

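The deposited table holds expected counts of 26869 genes in 23 tumors, made by the authors from poly(A) RNA by dividing paired reads among 8 founder haplotypes (Bowtie 1.2.3, per the submitters' processing notes, with builds mm10 and GRCm38). Values were rounded to whole numbers, since 16.9% were not whole. Symbols and coordinates come from GENCODE vM21, which matched 26681 identifiers, and promoter windows from RefSeq. Lines and antibodies are from the labels, and the responder classes from the study's text.

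Genes with at least 5 counts in all were tested in R 4.3.3 with DESeq2 1.42.0, as in the study, rather than with edgeR as the primary test. Calls have a Benjamini-Hochberg adjusted p under 0.05 over all genes tested. Alternatives used edgeR 4.0.16, limma 3.58.1, other scalings and filters, and fewer tumors. The script was tested on simulated data in which tumors were drawn independently, without a spread between lines. That test therefore cannot show how class p-values behave when tumors share a line. Members and lists were chosen with earlier results of these data known. The comparisons of 1 line with the others, the fits without a line and those without muscle-marked tumors were added after values by line were seen. Full values are given for called members (at most the 10 largest differences) and always for Slc2a1, Ldha, Pgk1, Gapdh, Hif1a and Car9, and of the other pathway lists for at most 4 called genes per comparison, with Vegfa always. Pseudogenes were found by name or by alignment over at least 50% of their length at 90% identity (blastn 2.17.0).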

Additional observations from a re-analysis of the deposited data

Results flagged for a closer look

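Within each class and antibody, the highest or lowest tumor of a gene was set against the rest of its group by Dixon's gap-to-range ratio, in 140 combinations of gene and group. A tumor stood apart in 12 of them. For independent values of 1 homogeneous group chance gives about 5%, but each group here pools 3 host lines and the 35 genes share tumors, so 12 cannot be read against that share. CC036F1 isotype replicate 2 stood above the other NR isotype tumors for Car9 at 2365 normalized counts, P4ha2 at 3668, Ddit4 at 3952 and Pfkl at 11480. CC002F1 isotype replicate 2 stood above the other R isotype tumors for Slc2a1 at 8553, Hk2 at 5418, Ero1l at 32317 and Ddit4 at 2436. CC002F1 isotype replicate 1 stood below the same group for Egln3 at 903 and Car9 at 131. CC001F1 isotype replicate 2 was lowest for Adm at 19.3, and CC001F1 aPD1 replicate 1 was highest of the R aPD1 tumors for Ddit4 at 2075. The cause of these values was not tested.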

How the results depend on the processing

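Of 3990 recomputed differences of single genes, 3639 kept their direction and side of the threshold, 274 lost a call, 24 gained one and 53 changed sign. Counts of called members moved as follows, and causes were not tested. The share of all genes called moves with the fit too. For R against NR over all tumors it was 7.66% higher and 6.78% lower, and 5.96% and 4.92% without CC036F1. That share is not given for each setting or each omitted tumor, so a change in these counts is not read as a result about the list. R against NR over all tumors gave 4 with edgeR, limma, counts summed per line and antibody, or without CC002F1 or CC075F1, then 5 without CC036F1 and 20 without CC080F1, against 11. Within isotype tumors it gave 0 with edgeR, limma, deep libraries or without CC036F1, then 2 with depth as a term, summed counts or without CC075F1, 4 without muscle-marked tumors and 10 without CC080F1. Within aPD1 tumors it gave 1 with edgeR, limma or without CC075F1, 5 without CC036F1 and 7 without CC079F1. The aPD1 effect gave 0 in R lines with edgeR or limma and 10 without CC002F1, and 2 in NR lines without CC080F1. The line test gave 2 without CC036F1. CC001F1 gave 1 without muscle-marked tumors, CC075F1 gave 2 with a stricter filter, 0 with edgeR or limma and 4 in deep libraries, and CC079F1 gave 1 with edgeR, limma or deep libraries. The replicate numbers did not pair the tumors (correlations from -0.404 to 0.368, 14 of 55 over 0.1), and with the replicate block the isotype comparison gave 2 called members and that over all tumors 11.

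Leaving out 1 tumor at a time gave 7 to 15 members for R against NR over all tumors (lowest without CC001F1 aPD1 replicate 2, CC002F1 isotype replicate 1, CC075F1 aPD1 replicate 1 or CC036F1 aPD1 replicate 1), 1 to 5 within isotype and within aPD1 tumors, 1 to 11 for aPD1 in R lines (11 without CC002F1 isotype replicate 2), 0 to 4 in NR lines and 22 to 31 for line. For 1 line against the rest it gave 0 to 2 for CC001F1 and CC080F1, 0 to 4 for CC002F1 and CC075F1, 24 to 30 for CC036F1 and 1 to 4 for CC079F1.

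Signs changed only for differences near 0 or without a call. Without CC036F1, the difference of R from NR in aPD1 tumors was 0.089 for Car9, 0.084 for Gapdh (-0.12 to 0.010 leaving out single tumors), 0.088 for Ldha and 0.0035 for Pgk1, that over all tumors 0.031 for Gapdh and 0.041 for Ldha, that in isotype tumors 0.0010 for Ldha, and the aPD1 effect in NR lines 0.085 for Car9, -0.035 for Gapdh and -0.00098 for Hif1a. Omitting single tumors gave -0.28 to 0.23 for Car9 and -0.0042 to 0.087 for Hif1a in the latter. In deep libraries the aPD1 effect was -0.0029 for Ldha and -0.058 for Pgk1 in NR lines and -0.010 for Pgk1 in R lines. Hif1a between classes in aPD1 tumors was -0.0056 with TMM scaling and with edgeR, -0.0073 with limma, -0.0068 with the replicate block, -0.0069 without CC001F1, -0.0027 without CC036F1, -0.048 without CC075F1, -0.033 without CC080F1, -0.019 without muscle-marked tumors and -0.033 to 0.040 leaving out single tumors. Over all tumors it was 0.023 without CC002F1 and 0.0059 without CC079F1, and in CC036F1 it ran from -0.067 to 0.030. The interaction was -0.0038 for Gapdh without CC080F1 (-0.0042 to 0.093 leaving out single tumors), -0.013 for Ldha without CC075F1 and -0.066 for Slc2a1 without CC001F1. For Pgk1 it was -0.0082 with TMM scaling, -0.0083 with edgeR, -0.020 with limma, -0.031 without CC001F1, -0.024 without CC075F1, -0.046 without CC079F1 and -0.043 to 0.10 leaving out single tumors. The 3 lines per class and the 6 shallow libraries limit all class comparisons.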
